A study of Mus musculus with 4 samples.

Results

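A set of 9 genes of prohormone processing and insulin granule release was examined in the methylated DNA of WT and βRapKO mouse islets. They were chosen by name, not by their measured values, but with earlier results of these data known. The genes are the processing enzymes Pcsk1, Pcsk2 and Cpe, the granule membrane proteins Ptprn and Ptprn2, the calcium sensor Syt7, the docking protein Rims2 and the SNARE proteins Snap25 and Stx1a. A region belonged to a gene where it overlapped the gene body or the 2000 bp upstream of it, and regions were made by joining peaks of the 4 libraries that shared 1 bp or more. The 9 genes held 109 of 186169 regions, and in 43 of these every library had a peak (shared regions below). In the whole experiment there were 75052 shared regions. All 9 genes had a region, as did 77.7% of protein-coding genes.

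MeDIP-seq enriches sheared DNA with an antibody to methylated cytosine, so a peak marks a stretch from which more tags (aligned reads, counted once per position) came than from its surroundings. Islets of mice aged 8 weeks, labelled C57BL/6, gave 2 libraries of each genotype. All mice carried the floxed Raptor alleles (Raptor lox/lox), and the βRapKO mice also carried RipCre, in which the rat insulin promoter drives the recombinase that deletes Raptor in insulin-expressing cells, whereas the WT controls had no Cre. Per the methods of the study the RIP-Cre line had a mixed C57BL/6J and 129/SvJ background. Islets were handpicked and hold other endocrine, vascular and stromal cells as well as beta cells, so a change in the share of cell types and a change of methylation within a cell type cannot be told apart here. DNA libraries hold no RNA, and islet identity could therefore not be checked by marker expression.

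Proinsulin becomes insulin inside the secretory granule, where the endoproteases encoded by Pcsk1 and Pcsk2 cut it at pairs of basic residues and carboxypeptidase E, from Cpe, removes the basic residues left behind. Granules then dock at the plasma membrane, where syntaxin 1A (Stx1a) and SNAP-25 (Snap25) pair with a granule SNARE, RIM2 (Rims2) tethers and primes the granule next to calcium channels, and synaptotagmin 7 (Syt7) senses calcium and triggers fusion. The proteins of Ptprn and Ptprn2, known as IA-2 and phogrin, lie in the granule membrane, resemble receptor tyrosine phosphatases without having normal phosphatase activity, and are autoantigens in type 1 diabetes. Methylation of CpG sites at promoters is commonly associated with silencing, whereas the bodies of transcribed genes are often methylated.

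The 5 stretches of 250 bp given next show what kind of sequence the results rest on. All are mm10 sequence from the RefSeq copy of GRCm38, written 5′ to 3′ on the strand of the gene, with each CpG site in capitals. The first 4 lie around the summit of a peak in a region described below, and the last is the stretch just before a gene start that carried no peak. They are the Ptprn region upstream of its start (chr1:75266132-75266381), the Ptprn2 region with the most tags (chr12:116547226-116547475), the Syt7 region with the largest difference (chr19:10429160-10429409), the Rims2 region that was highest in βRapKO relative to WT (chr15:39477031-39477280), and the 250 bp before Pcsk1 (chr13:75089576-75089825).
Ptprn region 1: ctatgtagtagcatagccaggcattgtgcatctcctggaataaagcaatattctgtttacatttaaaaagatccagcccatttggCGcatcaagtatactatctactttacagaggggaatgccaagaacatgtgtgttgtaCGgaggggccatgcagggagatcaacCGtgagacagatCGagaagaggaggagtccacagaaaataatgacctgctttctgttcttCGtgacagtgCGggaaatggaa
Ptprn2 region 3: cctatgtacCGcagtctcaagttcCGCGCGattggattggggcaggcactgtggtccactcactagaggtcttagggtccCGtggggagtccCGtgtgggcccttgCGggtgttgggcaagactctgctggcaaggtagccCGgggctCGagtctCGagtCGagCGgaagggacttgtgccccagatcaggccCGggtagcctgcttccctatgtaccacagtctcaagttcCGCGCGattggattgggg
Syt7 region 5: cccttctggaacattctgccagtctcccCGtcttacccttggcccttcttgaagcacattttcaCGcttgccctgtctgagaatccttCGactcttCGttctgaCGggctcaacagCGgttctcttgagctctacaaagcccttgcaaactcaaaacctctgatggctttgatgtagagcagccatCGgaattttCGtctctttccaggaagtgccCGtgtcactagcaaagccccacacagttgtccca
Rims2 region 10: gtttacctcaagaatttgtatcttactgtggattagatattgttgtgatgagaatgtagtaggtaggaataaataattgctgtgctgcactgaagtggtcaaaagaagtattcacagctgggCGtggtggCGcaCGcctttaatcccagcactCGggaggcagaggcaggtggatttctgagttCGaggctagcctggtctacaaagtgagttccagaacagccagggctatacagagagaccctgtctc
Pcsk1 upstream: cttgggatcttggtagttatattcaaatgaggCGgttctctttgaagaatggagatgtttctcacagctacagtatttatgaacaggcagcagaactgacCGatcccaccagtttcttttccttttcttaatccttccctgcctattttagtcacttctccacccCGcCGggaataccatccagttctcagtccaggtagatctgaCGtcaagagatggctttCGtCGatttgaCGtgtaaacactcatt
The Ptprn2 stretch held 16 CpG sites, the Syt7 stretch 9, the Ptprn stretch 6 and the Rims2 stretch 5. The stretch before the start of Pcsk1 had 8.

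Per library, 25585533 to 31330751 tags were left after removal of duplicates, and 117638 to 151093 peaks were called. WT replicate 2 was the deepest library and had the most peaks, and it also had a peak in 94 of the 109 regions, against 68 in WT replicate 1 and 63 and 69 in the βRapKO libraries. Among the other libraries the order differed, since WT replicate 1 had the fewest tags but more peaks (121186) than either βRapKO library. The part of depth in the peak patterns was not tested. Rptor, the gene targeted in βRapKO, had 13 shared regions. Their tags summed to 39.1 and 39.6 CPM (counts per 1e+06 tags left after removal of duplicates) in WT and 33.9 and 37.4 in βRapKO, and the adjusted p was 0.638 by the gene test described below. These tags lie over the whole gene and give no check of the deletion.

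Most starts of the 9 genes were free of regions, as was so for most protein-coding genes. A single gene, Ptprn, had a region within the window from 2000 bp upstream to 500 bp into the gene, and that region lay wholly upstream. Over all 21938 protein-coding genes, 25.0% had a region in this window. In the 300 bp at the start itself (250 bp before to 50 bp after), 0 of the 9 genes had a region, against 8.36% of all genes. The number of CpG sites there differed between the genes. Syt7 had 38 CpG sites in these 300 bp, Pcsk2 34, Rims2 28, Ptprn2 24, Cpe 21, Stx1a 19, Snap25 15, Pcsk1 9 and Ptprn 6, and the median of all genes was 11. Thus 7 of the 9 genes were above the median, and the pair below it were Pcsk1 and Ptprn. Among all genes, a region in the 300 bp was found in 7.02% of the genes with 0 to 3 CpG sites. The share was 19.2% with 4 to 11 CpG sites, the range of Pcsk1 and Ptprn. It was 5.2% with 12 to 23, the range of Cpe, Snap25 and Stx1a, and 1.61% with 24 or more, the range of Pcsk2, Ptprn2, Syt7 and Rims2.

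**Figure D1:**
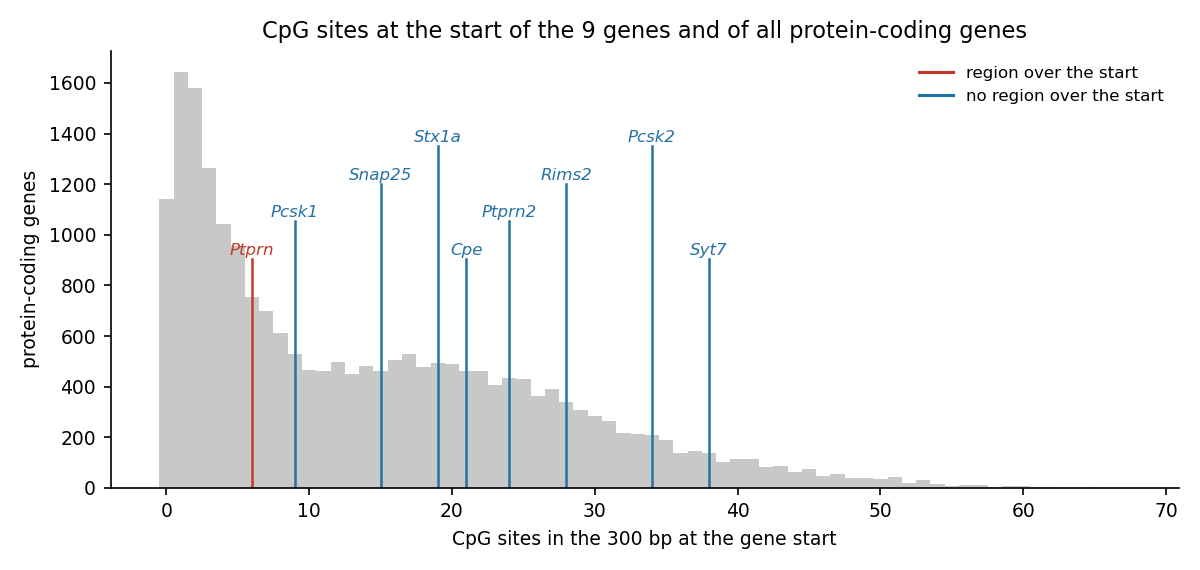
Number of protein-coding genes (vertical axis) by the number of CpG sites in the 300 bp at the gene start (horizontal axis), for 21938 genes in grey, with the 9 genes marked by lines whose height has no meaning. Red marks Ptprn, which had 6 CpG sites and was the only one with a region over the wider start window, and Syt7 lies farthest to the right with 38.

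Over the gene bodies, 22 of the 109 regions overlapped a coding exon of the principal transcript and 86 lay within its introns. Their median width was 1013 bp, against 1143 bp for all regions. Shared regions had a median of 1.79 CpG sites per 100 bp in the 9 genes and 1.78 in the whole experiment. The share of repeat sequence had a median of 18.3% in the regions of the 9 genes, 18.6% in those of all protein-coding genes and 24.4% in all. Ptprn2 (791 kb) held 43 regions and Rims2 (486 kb) 26, and each of these long genes gave 15 of the 43 shared regions. Per length the order differed, since Stx1a had 23.6 regions per 100 kb of gene and upstream window, Ptprn 15.4 and Syt7 15.1, whereas Ptprn2 had 5.42, Rims2 5.33 and Pcsk1 2.13. By this measure Stx1a was at the 91.8 percentile of all protein-coding genes, those without a region included, and Ptprn2 at the 31.7 percentile.

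The peak patterns differed between genotypes in a small number of regions. Peaks were present in all 4 libraries in 39.4% of the regions of the 9 genes and in 40.3% of all regions. Peaks were present in both WT libraries and in neither βRapKO library in 10 regions (9.17%), against 4.16% of all regions. The opposite pattern was found in 2 regions (1.83%), against 1.58% of all. The 10 regions were 3 in Pcsk2, 3 in Ptprn2, 2 in Syt7 and 1 each in Pcsk1 and Cpe, and the 2 were in Ptprn and Rims2. The 10 regions held 24 to 66 tags per WT library, and 15 of their 20 peaks had a score (the −log10(p) of the peak caller times 10) under 100, with a median of 70.9 against 112.7 for the peaks of the shared regions. A missing peak gives no count for that library, so no difference could be tested in these regions. With an equal number of top-ranked peaks taken from each library, 5 regions had peaks in WT only (5.05%, against 2.70% of all regions) and 3 in βRapKO only (3.03%, against 2.91%), so the number of regions with peaks in WT only was lower there. With stricter peaks, 4 of 59 regions had them in WT only (6.78%, against 5.17% of all regions) and 2 in βRapKO only (3.39%, against 1.22%).

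**Figure D2:**
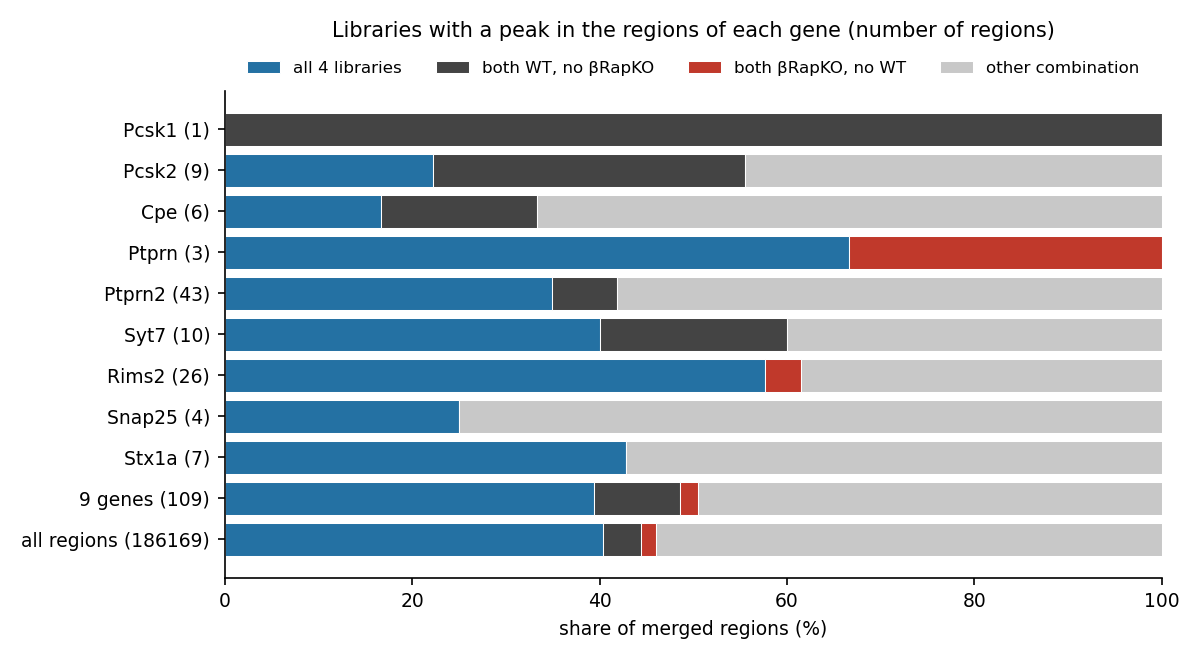
Share of merged regions (horizontal axis, %) by the combination of libraries with a peak, for each of the 9 genes, the 9 genes together and all 186169 regions, with the number of regions in brackets. The dark grey share, peaks in both WT and neither βRapKO library, is 9.17% in the 9 genes and 4.16% in all regions.

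In the 43 shared regions, tag counts were compared by edgeR's quasi-likelihood test, fitted on all 75052 such regions with Benjamini-Hochberg adjustment. The thresholds of a call were a fold-change above 1.5 and an FDR under 0.05. No region of the 9 genes was called, and the adjusted p lay between 0.628 and 0.998. In the whole experiment 0.0% was called lower and 0.0% higher. At an unadjusted p under 0.05, 1 of the 43 was lower in βRapKO (3.93% of all regions) and 2 were higher (1.88% of all). The fold-change alone exceeded 1.5 in 1 lower region (1.77% of all) and 1 higher region (1.29% of all). DESeq2 also called 0 of the 43, and it gave 1 lower and 0 higher at an unadjusted p under 0.05. The labels do not say whether the libraries came from separate animals, so these p-values measure the spread between libraries, which may be technical in part.

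Tag counts were lower on average in βRapKO in 28 of the 43 regions (65.1%), as they were in 60.8% of all regions. The median log2 fold-change was −0.14 in the 9 genes and −0.059 in all regions. In 15 regions each βRapKO library was below each WT library (25.3% of all regions did so), and in 7 it was above each (11.6% of all). The direction depended on the scale. With library size taken as the tags inside peaks, the median was 0.020 in the 9 genes and 0.10 in all regions, with 21 of 43 lower (48.8%, against 31.4% of all regions). With TMM normalization it was −0.077 and 0.0038, with 26 of 43 lower (60.5%, against 49.3%). Per kb of peak, 33 of 43 were lower (76.7%, against 79.6% of all regions), with medians of −0.20 and −0.16. Relative to all regions the median of the 9 genes was thus −0.083 by library size, −0.084 by tags in peaks and −0.081 with TMM. Without βRapKO replicate 2 it was 0.012, but over the 45 regions with a peak in every remaining library, which is not the same set. The 15 regions of Ptprn2 carried much of the difference in the 43 regions, since the median of the other 28 regions was −0.061. The WT libraries differed by a median of 0.15 on the log2 scale, the βRapKO libraries by 0.21 and the genotype means by 0.21. The last value compares means of 2 libraries and the others single libraries, so they are not like measures. The difference between genotypes exceeded both spreads in 14 of the 43 regions, and the share over all regions was not computed.

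**Figure D3:**
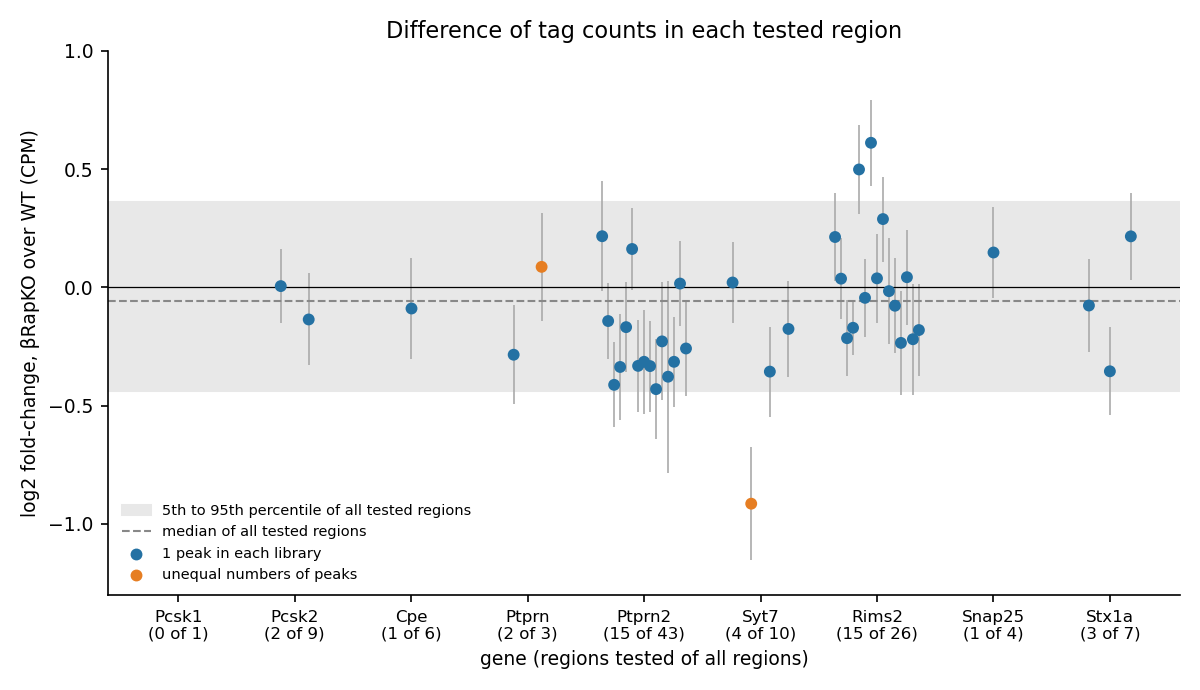
Log2 fold-change of CPM in βRapKO over WT (vertical axis) for each of the 43 tested regions, ordered along each gene, with the standard error of the edgeR fit as bars. The grey band holds the values between the 5th and 95th percentile of all 75052 tested regions (−0.44 to 0.36) and the dashed line is their median. Most of the 15 Ptprn2 regions lie below it, 2 Rims2 regions lie above the band, and orange marks the 2 regions with more than 1 peak in some libraries, Syt7 region 5 at −0.91 and Ptprn region 3 at 0.087.

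For a value per gene, tags were summed over its shared regions and tested in the same way on 13365 protein-coding genes. Of the 9 genes 8 could be tested, since Pcsk1 had no such region. None was called by edgeR at an FDR under 0.05, as in the whole table, where 0.0% was called in either direction. Ptprn2 and Syt7 were lower at an unadjusted p under 0.05, as were 7.32% of all genes, and 0 of the 8 were higher, as were 1.24% of all. DESeq2 called none either, and gave 0 of 8 at an unadjusted p under 0.05. The difference in mean was below 0 in 7 of the 8 genes, against 69.1% of all genes, but with TMM normalization in 3 of 8. The median log2 fold-change of all genes was −0.084 by library size and 0.0044 with TMM.

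Pcsk1, which encodes prohormone convertase 1/3, had a single region, in intron 6 and 17.3 kb into the gene (chr13:75106563-75107657). It held 39 tags in each WT library, or 1.52 and 1.24 CPM, and no peak in either βRapKO library. By number of regions it was at the 22.3 percentile of all protein-coding genes, those without a region included. A single region is the lowest number that a gene with a region can have.

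Pcsk2 encodes prohormone convertase 2 and had 9 regions over 270 kb, which were 2 shared regions, 3 with peaks in WT only and 4 with other combinations. Region 4, in intron 2 (chr2:143630436-143632204), had the most tags, with 4.06 and 3.96 CPM in WT and 3.94 and 4.11 in βRapKO. The libraries overlapped fully, and the log2 fold-change was 0.0053 (SE 0.16, edgeR adjusted p = 0.998). The other region with a peak in every library, in intron 6, had 1.72 and 1.53 CPM in WT and 1.33 and 1.61 in βRapKO. A further 3 Pcsk2 regions had peaks in WT only. They lay in introns 2, 5 and 6, with 1.41 and 0.989, 1.06 and 1.31, and 0.938 and 0.830 CPM in the WT replicates. The summed tags of Pcsk2 came to 5.78 and 5.49 CPM in WT and 5.27 and 5.72 in βRapKO, a log2 fold-change of −0.035 with an adjusted p of 0.960.

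Cpe, the carboxypeptidase gene, had 6 regions, of which a single one was shared. It covered exon 5 (chr8:64608727-64609799), with 1.49 and 2.01 CPM in WT and 1.71 and 1.61 in βRapKO. Both βRapKO values fell between the WT values (log2 fold-change −0.088, SE 0.21, edgeR adjusted p = 0.964). A region in intron 1 had peaks in WT only, with 1.02 and 0.830 CPM. Across the 3 processing genes, 5 of 16 regions had peaks in WT only (31.3%, against 4.16% of all regions) and 0 in βRapKO only (1.58% of all), and 3 of 16 were shared (18.8%, against 40.3%). Over the 9 genes, the number with peaks in WT only fell from 10 to 5 with equal numbers of peaks.

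Ptprn encodes IA-2 and had the one region near a gene start. Region 1 lay upstream of Ptprn, centred at −1.97 kb from the start (chr1:75265578-75267373), and held 3.01 and 2.84 CPM in WT and 2.05 and 2.74 in βRapKO. Each βRapKO library was below each WT library, but they differed from each other more than the lower WT value did from the higher βRapKO value. The log2 fold-change was −0.28 (SE 0.21, edgeR adjusted p = 0.870). Region 3 of Ptprn covered exons 13 to 18 (chr1:75252096-75254263), with 3.56 and 3.42 CPM in WT and 2.91 and 4.49 in βRapKO, so that the WT values lay between the βRapKO values. An antisense gene, Gm28294, overlaps it, and MeDIP tags belong to both genes. Region 2, in intron 4, had peaks in βRapKO only, with 1.27 and 2.06 CPM. The sum for Ptprn was 6.57 and 6.26 CPM in WT and 4.96 and 7.23 in βRapKO, a log2 ratio of −0.072. Region 3 joined 2 peaks in each WT library and held 1 in each βRapKO library, and without it the log2 ratio was −0.29, the value of region 1 alone.

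Ptprn2 encodes phogrin and is the longest of the 9 genes. Of its 43 regions 15 could be tested, and none of these passed even an unadjusted p under 0.05. The sum over its 15 shared regions was 35.4 and 34.6 CPM in WT and 28.9 and 30.0 in βRapKO. The groups did not overlap, and the mean ± SD was 35.0 ± 0.524 in WT and 29.5 ± 0.808 in βRapKO (n = 2 each). The log2 fold-change was −0.25 (SE 0.077), with an edgeR adjusted p of 0.563, so that it did not pass the FDR. It was −0.36 per kb of peak and −0.16 with TMM normalization. When each library was left out it lay between −0.27 and −0.21, over the regions with a peak in every remaining library. With library size taken as the tags inside peaks it was −0.089.

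Of the 15 tested regions of Ptprn2, 12 were lower on average in βRapKO and 3 higher, and the groups did not overlap in 8 of the lower (53.3% of the 15, against 25.3% of all regions) and 1 of the higher ones (6.67%, against 11.6%). The median log2 fold-change was −0.31. Region 3, in intron 1 and 61.3 kb into Ptprn2 (chr12:116546268-116547824), had the highest mean, with 4.85 and 4.50 CPM in WT and 4.48 and 3.98 in βRapKO. Its log2 fold-change was −0.14 (SE 0.16, edgeR adjusted p = 0.914), and 87.5% of it was repeat sequence. Region 29, in intron 12 of Ptprn2 (chr12:117099383-117100798), was the lowest relative to WT. It held 2.46 and 2.52 CPM in WT and 2.09 and 1.61 in βRapKO (log2 fold-change −0.43, SE 0.21, edgeR adjusted p = 0.858). Region 4 in intron 1, the neighbour of region 3, showed a like value of −0.41, with 3.40 and 4.05 CPM in WT and 2.74 and 2.88 in βRapKO. Region 1 of Ptprn2, also in intron 1 (chr12:116507240-116508239), was the highest relative to WT. It had 0.938 and 1.4 CPM in WT and 1.27 and 1.51 in βRapKO, and the groups overlapped. A pseudogene, Gm6750, lies in it.

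Region 33 of Ptprn2 showed how far libraries of 1 genotype could part. It held 5.16 and 2.84 CPM in WT and 1.85 and 4.25 in βRapKO, and in the libraries with the lower value of each pair the peak was shorter, 1336 and 1208 bp against 2431 and 2442 bp. There were 3 Ptprn2 regions that had peaks in WT only. Region 9, in intron 3, had the highest CPM of all 10 such regions, 2.15 and 2.11, and was also the widest (1675 bp). Per kb of peak it held 1.52 and 1.30 CPM, below the 1.65 and 1.94 of the Pcsk1 region. The others lay in intron 2 (1.45 and 1.21 CPM) and over exon 9 (1.33 and 1.24 CPM). Of the 43 regions of Ptprn2, 7 had a peak in WT replicate 2 alone, which is 16.3%, and in all regions this share was 12.9%.

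**Figure D4:**
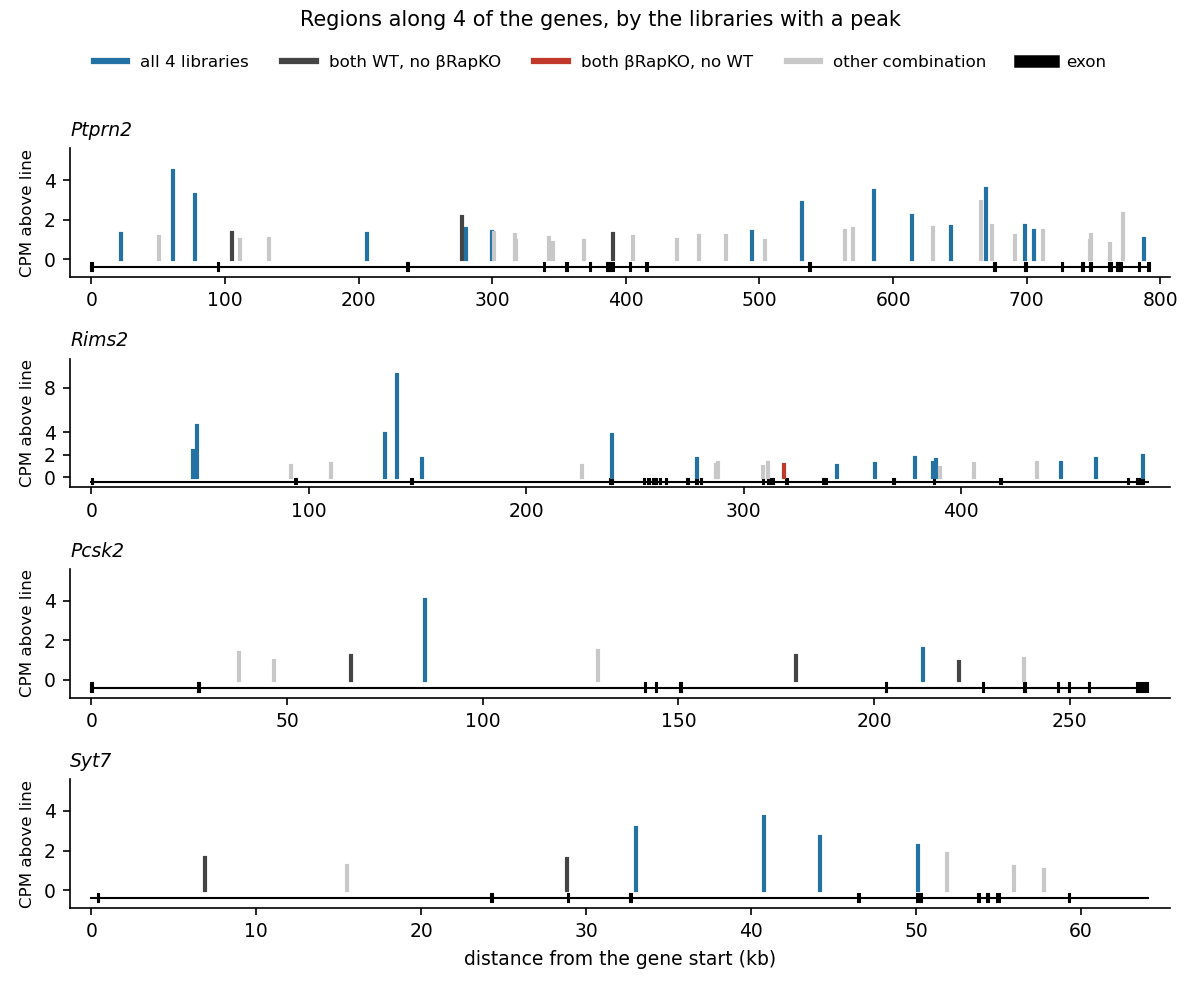
Regions along Ptprn2, Rims2, Pcsk2 and Syt7, by distance from the gene start (horizontal axis, kb), with exons of the principal transcript in black on the line and the height of each bar giving the mean CPM over the libraries with a peak. Blue bars, with a peak in all 4 libraries, run along the whole of Ptprn2 and Rims2, and none lies over the start of any of the 4 genes.

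Syt7, the calcium sensor gene, showed the lowest summed value of the 8 genes relative to WT, and 1 region decided its size. The sum over 4 regions was 13.5 and 13.2 CPM in WT and 9.72 and 10.6 in βRapKO. The groups did not overlap, and the log2 fold-change was −0.39 (SE 0.11, edgeR adjusted p = 0.544). Without βRapKO replicate 1 it was −0.23, over the regions with a peak in every remaining library. That sum also took in region 8, with 1.49 and 1.79 CPM in WT and 2.16 in βRapKO replicate 2. Region 5 of Syt7, in intron 4 (chr19:10428642-10431078), held 5.04 and 4.66 CPM in WT and 1.95 and 3.19 in βRapKO, a log2 fold-change of −0.91 (SE 0.24, edgeR adjusted p = 0.628). It was the lowest of the 43 and the 1 that was lower at an unadjusted p under 0.05.

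Region 5 of Syt7 joined a pair of adjoining peaks that were not called alike. Each WT library had both peaks, βRapKO replicate 1 had the 5′ peak alone and βRapKO replicate 2 the 3′ peak alone. The 5′ peak held 2.11 and 2.2 CPM in WT and 1.95 in βRapKO replicate 1. The 3′ peak held 2.93 and 2.46 CPM in WT and 3.19 in βRapKO replicate 2. Where a peak was called, its count in βRapKO was thus close to those in WT, and tags outside peaks were not counted. Per kb of peak the log2 fold-change of region 5 was −0.038. Without it, the tags of Syt7 summed to 8.44 and 8.49 CPM in WT and 7.77 and 7.40 in βRapKO, a log2 ratio of −0.16. The 3′ peak covers an exon of another coding transcript of Syt7.

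The other regions of Syt7 were closer between genotypes. Region 4, over exon 4 (chr19:10421198-10423058), was the highest relative to WT, with 3.05 and 3.16 CPM in WT and 3.29 and 3.02 in βRapKO. The groups overlapped, and the log2 fold-change was 0.020 (SE 0.17, edgeR adjusted p = 0.990). Region 6, in intron 4 next to region 5, had 3.20 and 2.78 CPM in WT and 2.22 and 2.43 in βRapKO, and region 7, over exon 6, had 2.19 and 2.55 and 2.26 and 1.95. A pair of Syt7 regions had peaks in WT only. These were region 1 in intron 1, with 1.64 and 1.56 CPM, and region 3 over exon 3, with 1.49 and 1.69 CPM.

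Rims2, which encodes the docking and priming protein RIM2, had close sums of CPM in both genotypes. Its 15 shared regions came to 38.3 and 39.0 CPM in WT and 38.7 and 37.4 in βRapKO (log2 fold-change −0.023, SE 0.074, edgeR adjusted p = 0.950). Per kb of peak the log2 fold-change of the sum was −0.22, and the median of all genes on that scale was −0.18. Of these 15 regions, 8 regions were lower and 7 higher in βRapKO. Region 6, in intron 2 (chr15:39337266-39340232), had the most tags of all regions of the 9 genes, with 10.2 and 9.29 CPM in WT and 8.52 and 8.74 in βRapKO. Each βRapKO library was below each WT library, with a log2 fold-change of −0.17 (SE 0.12, edgeR adjusted p = 0.866), and 90.0% of the region was repeat sequence.

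A pair of Rims2 regions went the other way and were the only ones of the 43 that were higher at an unadjusted p under 0.05. Region 10, over exon 12 (chr15:39476232-39477659), held 1.29 and 1.24 CPM in WT and 1.88 and 1.99 in βRapKO, with no overlap. Its log2 fold-change was 0.61 (SE 0.18, edgeR adjusted p = 0.780), the highest of the 43. Its peaks were also longer in βRapKO, 1079 and 1310 bp against 918 and 842 bp, and per kb of peak the log2 fold-change was 0.17. Region 7 in intron 3 had 1.29 and 1.44 CPM in WT and 2.02 and 1.85 in βRapKO (log2 fold-change 0.50, edgeR adjusted p = 0.849), 0.081 per kb, and was named after its value was seen. It was 96.5% repeat sequence. Region 20, in intron 21 (chr15:39586320-39587414), was the lowest of Rims2 relative to WT, with 1.88 and 1.5 CPM in WT and 1.61 and 1.23 in βRapKO, and the groups overlapped. Region 15 of Rims2, in intron 16, had peaks in βRapKO only, with 0.992 and 1.27 CPM.

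Of the 11 regions of the SNARE genes, 0 had peaks in both libraries of 1 genotype and neither of the other. Among all regions 4.16% had peaks in WT only and 1.58% in βRapKO only, so 0 of 11 lies near these shares. Snap25 had 4 regions, of which region 1, in intron 1 (chr2:136721623-136722625), had a peak in every library. It held 1.80 and 1.79 CPM in WT and 2.12 and 1.85 in βRapKO. Both βRapKO libraries were higher, but they differed from each other by more than the lower one did from WT, and the log2 fold-change was 0.15 (SE 0.19, edgeR adjusted p = 0.925). By library size, Snap25 was the only one of the 8 genes whose summed tags were higher on average in βRapKO. With TMM 5 of the 8 were, and the median of all genes was then 0.0044.

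Stx1a had 7 regions within 27.6 kb, and its 3 shared regions lay over coding exons. Region 4, over exons 2 to 3, had the most tags, with 3.67 and 3.03 CPM in WT and 3.49 and 2.84 in βRapKO. The groups overlapped, and the log2 fold-change was −0.077 (SE 0.20, edgeR adjusted p = 0.966). The region over exons 5 to 7 of Stx1a was lower in both βRapKO libraries, with 2.85 and 3.10 against 2.19 and 2.47 CPM, and that over exon 9 was higher in both, with 1.41 and 1.34 against 1.71 and 1.47 CPM. The sum for Stx1a was 7.93 and 7.47 CPM in WT and 7.39 and 6.79 in βRapKO (log2 fold-change −0.12, SE 0.13, edgeR adjusted p = 0.813). Of its 7 regions, 3 had a peak in WT replicate 2 alone.

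**Figure D5:**
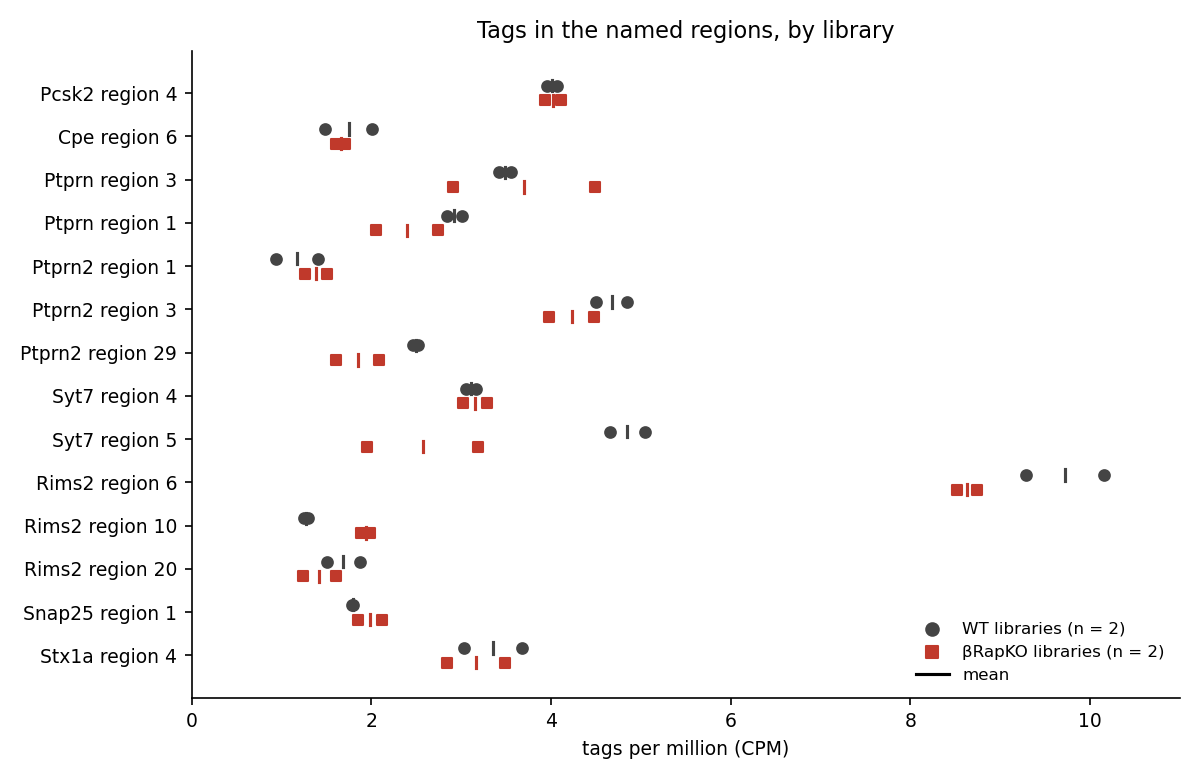
CPM (horizontal axis, tags per 1e+06) in each WT library (dark circles, n = 2) and βRapKO library (red squares, n = 2) for the 14 named regions with a peak in every library, with a short line at each mean. Syt7 region 5 and Rims2 region 10 show the widest separation in relative terms, 5.04 and 4.66 against 1.95 and 3.19 and 1.29 and 1.24 against 1.88 and 1.99, whereas Pcsk2 region 4 and Syt7 region 4 overlap.

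A list of 49 other genes of granules, SNARE complexes, calcium sensing and the active zone (the scaffold at which vesicles dock) gave the wider pathway. Of these 42 had a region, 455 in all, and 35 could be tested. None was called by edgeR in either direction, and at an unadjusted p under 0.05 there were 2 lower (7.32% of all genes) and 0 higher (1.24% of all). On average 26 were lower (69.1% of all genes) and 9 higher. The number lower was 12 of 35 with TMM or DESeq2. It was 7 of 35 with library size taken as the tags inside peaks and 34 of 35 per kb of peak. All genes shifted with the scale too. Their median log2 fold-change was 0.0044 with TMM, 0.0032 with DESeq2, 0.079 with the tags inside peaks and −0.18 per kb of peak. With TMM 0 of the 35 were lower at an unadjusted p under 0.05. DESeq2 called none and gave 0 of the 35 at an unadjusted p under 0.05. The median log2 fold-change of the 35 genes was −0.056, and that of all 13365 genes was −0.084. Unc13a, which encodes the priming protein Munc13-1, had 19.8 and 19.6 CPM in WT and 16.5 and 16.6 in βRapKO (log2 fold-change −0.25, edgeR adjusted p = 0.563). Rims3, a RIM family member, had 6.14 and 5.81 CPM in WT and 4.79 and 4.56 in βRapKO (log2 fold-change −0.35, edgeR adjusted p = 0.574). In both genes the groups did not overlap, which was so for 8 lower and 2 higher of the 35 genes, against 32.6% and 8.51% of all genes. The scaffold genes Bsn and Ppfia3 came next, with log2 fold-changes of −0.17 and −0.22 and adjusted p of 0.634 and 0.658.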

How the data were processed

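MeDIP-seq libraries of 2 WT and 2 βRapKO islet samples were grouped by the sample labels. The authors aligned reads to mm10 with Bowtie2 (2.2.5) and called peaks per library without a control, with MACS at a p cutoff of 1e-05 and 1 tag per position (version 1.4.2 in the file headers, 0.14.2 in the submitters' processing notes). The deposited values of a peak are its raw count of tags, its −log10 p-value times 10 and its fold enrichment, a ratio to the local background. Tags outside peaks and the 500 bp windows of the study were not used here.

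Peaks were joined across libraries. Tags per region were divided by the tags left after duplicates and multiplied by 1e+06 to give CPM. Regions with a peak in every library, and their sums per gene, were tested with edgeR 4.0.16 in R 4.3.3 (quasi-likelihood, no covariates, Benjamini-Hochberg over the whole table), which was tested on simulated data. Genes, transcripts and exons were taken from GENCODE release 21 for mouse, and sequence from GRCm38, of which some stretches are not reported here. Regions were numbered from the gene start. The rule for named regions took those over the gene start, with the most tags, with the lowest and highest log2 fold-change where more than 3 were tested, and with peaks in 1 genotype only. Other regions in the text were chosen after their values were seen. Pathway genes were named by smallest p, at most 4. Alternatives were other library sizes, TMM, DESeq2 1.42.0, limma 3.58.1 on log2(CPM + 0.5), tags per kb, at least 50 tags, stricter peaks (−log10 p times 10 of at least 100), 50% overlap, other gene windows, other thresholds, a replicate block and each library left out. With a library left out, the regions with a peak in every remaining library were used, so the set of regions changed too. Regions with 1 peak in each library were added after seeing the data. The 9 genes, the pathway list and the tests were chosen with earlier results of these data known. An exact permutation test of 2 libraries against 2 cannot give a p below 0.333 and was not used.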

Additional observations from a re-analysis of the deposited data

How the results depend on the processing

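No region and no summed gene was called under any alternative, including an FDR under 0.1 with no minimum fold-change, and at an unadjusted p under 0.05 there were 3 regions. The median log2 fold-change of the 43 regions was −0.17 with tags before removal of duplicates and 0.020 with the tags inside peaks. It was −0.077 with TMM, −0.080 with DESeq2 and −0.20 per kb of peak. In the 19 regions with at least 50 tags in every library it was −0.18. When each library was left out, 44 to 50 regions had a peak in every remaining library, and their median lay between −0.13 and −0.082. Regions lower in βRapKO numbered 14 of 19 with at least 50 tags (73.7%, against 66.1% of all regions). With stricter peaks they numbered 9 of 13 (69.2%, against 63.9%). Without 1 library they numbered from 27 of 44 to 34 of 50 (61.4% to 68.0%, against 54.1% to 63.7% of all regions). Stricter peaks left 6 regions with peaks in 1 genotype, 4 of them in WT. An equal number of peaks per library gave 5 in WT only. Without 1 library, when a single library can stand for a genotype, they numbered 16 to 27, with 12 to 24 in WT only and 3 to 7 in βRapKO only. The shares in WT only were 11.5% to 22.9%, against 8.87% to 17.9% of all regions. Those in βRapKO only were 2.86% to 7.37%, against 3.41% to 6.90% of all regions. The replicate block gave 0 calls and medians of −0.15 for the regions, with 28 lower, and log2 fold-changes of −0.25 for Ptprn2 and −0.39 for Syt7. The labels give replicate numbers and do not say whether same-numbered libraries were paired. Deviations of same-numbered libraries correlated at 0.0474, but 2 pairs are too few to decide this. The sums of some genes changed sign. With the tags inside peaks they were 0.13 for Pcsk2, 0.085 for Cpe, 0.085 for Ptprn, 0.14 for Rims2, 0.045 for Stx1a and 0.017 for Rptor. TMM gave 0.053, 0.0015, 0.012 and 0.067 for Pcsk2, Cpe, Ptprn and Rims2, and DESeq2 gave 0.051, 0.010, 0.0088 and 0.066. Pcsk2 was 0.0054 with stricter peaks, Ptprn 0.087 over the gene body alone, and with all peaks of a gene Ptprn was 0.28 and Snap25 −0.078. In that last setting a region with no peak in a library adds no tags there. It also gave −1.08 for Cpe, −0.75 for Syt7, −0.42 for Ptprn2 and −0.39 for Stx1a, against −0.19 for all genes. There 3 of 9 genes were lower at an unadjusted edgeR p under 0.05 and none was called. The share of all genes at that p was not computed, so the 3 cannot be set against it. Without 1 library the sums ranged from −0.096 to 0.081 for Pcsk2, −0.28 to 0.16 for Cpe, −0.37 to 0.18 for Ptprn and −0.055 to 0.0018 for Rims2. These sums were taken over the regions with a peak in every remaining library. Regions close to 0 also changed sign. With tags before removal of duplicates Pcsk2 region 4 was −0.019 and Syt7 region 4 −0.0037. With the tags inside peaks Cpe region 6 was 0.084, Ptprn2 region 3 0.020 and Stx1a region 4 0.085. Per kb Pcsk2 region 4 was −0.17, Ptprn region 3 −0.032 and Ptprn2 region 1 −0.10. Without 1 library the ranges were −0.027 to 0.037 for Pcsk2 region 4, −0.28 to 0.16 for Cpe region 6, −0.26 to 0.37 for Ptprn region 3, −0.018 to 0.56 for Ptprn2 region 1, −0.042 to 0.081 for Syt7 region 4 and −0.23 to 0.063 for Stx1a region 4. The Syt7 sum was −0.16 with an overlap of 50% of the shorter peak and −0.061 with stricter peaks. The cause of these changes was not tested, except that each library size shifts all regions alike. A tested region held 24 to 291 tags per library.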
